A study of Sus scrofa domesticus with 6 samples.

Results

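The mitochondrial carriers of the SLC25 family were followed in small intestine of 6 Göttingen minipigs, a small laboratory breed of pig, by bulk RNA sequencing. Members were the rows of the deposited gene table whose symbol begins with SLC25A and that held at least 50 reads summed over the 6 libraries. There were 44 such genes among 45 SLC25A rows and 30352 rows with a gene name. All 44 passed the filter on low counts that left 18197 genes for testing. The row left out, SLC25A31, a testis-enriched ADP/ATP carrier, had 0 reads, and the member nearest to the limit was SLC25A48 with 76 reads.

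Every animal was wild type and 6 months old, and tissue was taken on day 14. The IR_Pra group (2 animals) received 15 Gy of cobalt-60 gamma rays to the abdomen and oral pravastatin at 40 mg/day for 2 weeks, which the label also gives as a dose given more than once a day. Pravastatin, a statin, inhibits cholesterol synthesis. The IR group (2 animals) received the same irradiation without the drug, and the control group (2 animals) received neither. The drug goes by PS as well as Pra in the labels, taken here as the same compound. Libraries held between 48587645 and 73968471 counts. Whole tissue was sequenced, so fewer cells of a type and less RNA per cell cannot be told apart in any value below.

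SLC25 proteins are the main family of metabolite transporters of mitochondria. Most sit in the inner mitochondrial membrane, which most metabolites cannot cross without a transporter. They exchange one solute for another by opening alternately to the matrix and to the intermembrane space. They bring ADP and phosphate to the ATP synthase and export the ATP made. Others move citrate, malate, amino acids, carnitine esters, iron, glutathione and cofactors, and so connect the citric acid cycle, urea cycle, heme synthesis and fatty acid oxidation with the cytosol. Small intestinal absorptive cells burn glutamine and glutamate and make citrulline from them in mitochondria, which draws on several of these carriers. The roles named below are those known from human and rodent proteins.

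Measured per transcript length, as FPKM (fragments scaled by transcript length and library depth), 3 members dominated the family. The mean level in control tissue was 1579 FPKM for SLC25A6 (ADP/ATP carrier 3), 467 FPKM for SLC25A5 (ADP/ATP carrier 2) and 374 FPKM for SLC25A3, the phosphate carrier. These are the carriers that feed the ATP synthase and export its product. The citrate carrier SLC25A1, the dicarboxylate carrier SLC25A10 and the glutathione carrier SLC25A39 followed at 79.6, 80.5 and 81.5 FPKM, with little between them. Counting these, 19 members lay between 10 and 100 FPKM, 17 between 1 and 10 FPKM and 5 under 1 FPKM in control tissue.

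The summed FPKM of all 44 members was 2550 and 2916 in the IR_Pra libraries, 3045 and 2242 in the IR libraries and 3043 and 3161 in the control libraries. The IR animals stood on either side of both IR_Pra animals, with IR 1 level with control 1 and IR 2 the lowest of all. As a share of all FPKM in a library, the family took 0.486% and 0.526% in IR_Pra and 0.465% and 0.448% in IR. In control it took 0.556% and 0.605%, so the share was lower in both irradiated groups, without overlap. Member counts scaled by library size alone summed to 4254 and 4705 in IR_Pra, 4934 and 3583 in IR, and 4964 and 5179 in control. Both irradiated groups were below control by this sum too, IR 1 only just. IR 1 was thus nearly level with control 1 by both sums, and its lower share reflects a larger total FPKM in that library. A fall of the family in both IR animals would therefore rest on a small difference in IR 1 and is not shown. SLC25A6 alone made up between 46.8% and 63.8% of the summed FPKM of the members, the highest value being in IR 2. Without SLC25A6 the sum was 1356 and 1390 FPKM in IR_Pra, 1576 and 811 FPKM in IR, and 1518 and 1528 FPKM in control. An exact permutation test of 2 against 2 animals cannot give a two-sided p below 0.333, so sums and shares are given as values without a test.

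**Figure D1:**
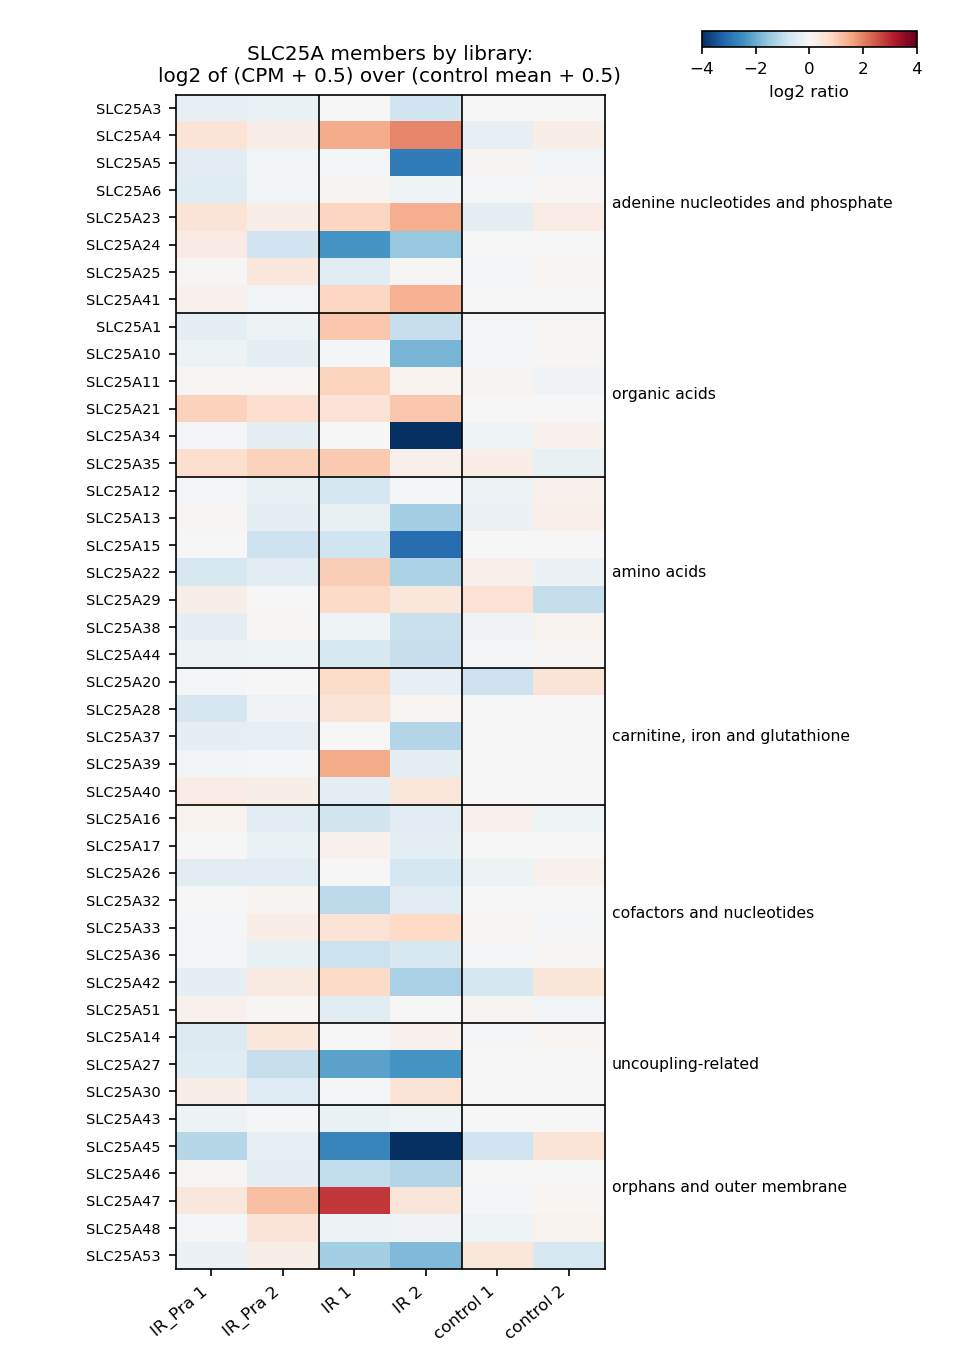
Each row is 1 of 43 SLC25A members, grouped by what the carriers move, and each column is 1 library (IR_Pra, IR, then control, animals 1 and 2). Colour is the log2 ratio of CPM + 0.5 to the control mean + 0.5, limited to a range of -4 to 4. The IR columns hold the strongest colours, and SLC25A34 at 4.33 CPM and SLC25A5 at 89.7 CPM stand out in IR 2 only.

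Irradiation alone was set against no irradiation first. SLC25A27 fell and SLC25A4 rose, and these 2 of 44 members were the ones that passed an adjusted p of 0.05 in edgeR's quasi-likelihood test with Benjamini-Hochberg adjustment over all 18197 genes. That is 2.27% of members in each direction. Among all genes, 3.39% passed as higher and 2.68% as lower in IR, so the family's share was no larger than that of the transcriptome. By unadjusted p under 0.05, 5 members (11.4%) were higher and 7 (15.9%) lower in IR, against 16.4% and 13.8% of all genes. CPM (counts scaled to a common library size with TMM factors) did not overlap between the groups for 9 members (20.5%) higher and 15 (34.1%) lower in IR, against 29.8% and 30.0% of all genes. The median log2 fold change was -0.20 over the 44 members and 0.03 over all genes. The members' median became -0.44 without IR 1, -0.02 without IR 2 and 0.00 without control 2, beside -0.01, -0.06 and 0.14 over all genes.

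SLC25A27 encodes uncoupling protein 4, a carrier best known from brain (chromosome 7, 41426161 to 41457887, Sscrofa11.1). It had 28.8 and 21.3 CPM in the IR_Pra libraries, 8.84 and 7.45 CPM in the IR libraries and 41.2 and 40.6 CPM in the control libraries. The 3 groups did not overlap, with IR lowest, IR_Pra between and control highest, and the animals of a group lay close together. The log2 fold change of IR over control was -2.33 ± 0.27 (SE, n = 2 each), a fold of 0.199, with an edgeR adjusted p of 0.0359. For IR_Pra over IR it was 1.62 ± 0.26 with an edgeR adjusted p of 0.0754, which missed the threshold, and for IR_Pra over control it was -0.71 ± 0.26 with an edgeR adjusted p of 1. The log2 fold change of IR over control was -2.46 without IR 1 and -2.21 without IR 2, fits in which the lone IR animal adds no spread of its own. The call was kept in 12 of 18 alternative fits, these among them, with log2 fold changes between -2.46 and -1.80. The edgeR adjusted p was above 0.05 when control 1 (0.238), control 2 (0.177), IR_Pra 1 (0.101) or IR_Pra 2 (0.101) was left out, with a log2 fold change between -2.27 and -2.26 in those fits.

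SLC25A4 encodes ADP/ATP carrier 1, the paralog of heart and skeletal muscle (chromosome 15, 46193498 to 46197989). It had 64.0 and 52.7 CPM in the IR_Pra libraries, 122 and 168 CPM in the IR libraries and 34.5 and 52.0 CPM in the control libraries. Both IR animals were above all 4 others, and the IR_Pra animals lay above the controls, IR_Pra 2 only just. The log2 fold change of IR over control was 1.75 ± 0.31 (SE, n = 2 each), a fold of 3.36, with an edgeR adjusted p of 0.0423. For IR_Pra over IR it was -1.31 ± 0.31 with an edgeR adjusted p of 0.0944. The call was kept in 8 of 18 alternative fits, with log2 fold changes between 1.5 and 2.13. Without control 1, control 2, IR_Pra 1 or IR_Pra 2 the edgeR adjusted p of IR against control was 0.244, 0.177, 0.106 or 0.106, and scaling by library size alone gave 0.0612. Taking out the trend on transcript length, an alternative chosen after seeing the data, gave an edgeR adjusted p of 0.0655.

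Smooth muscle markers and some skeletal muscle markers moved with SLC25A4. All 8 smooth muscle markers tested had a positive log2 fold change in IR against control, and 1 of them, ACTA2, passed the threshold. Their summed CPM was 21052 and 14351 in IR_Pra, 33130 and 70615 in IR, and 6206 and 12647 in control, the same order of groups as for SLC25A4. The 8 skeletal muscle markers summed to 204 and 138 CPM in IR_Pra, 347 and 393 CPM in IR, and 39.6 and 125 CPM in control, nearly all of it from CKM, the muscle creatine kinase. Without CKM, left out after its values were seen, the other 7 summed to 15.2 and 1.74 CPM in IR_Pra, 21.5 and 10.8 CPM in IR, and 1.37 and 7.32 CPM in control. MYH1 and MYH2, myosin heavy chains under 4 CPM in every library, passed the threshold. ACTA1 did not follow the groups, at 13.5 and 0 CPM in IR_Pra, 15.6 and 0.462 CPM in IR, and 0.883 and 5.43 CPM in control. MYH7, TNNT3 and MYLPF also overlapped between IR and control, as did MYLK of the smooth muscle list. Both IR animals were above both controls for 7 of 8 smooth muscle and 4 of 8 skeletal muscle markers, against 29.8% of all genes. No gene of either list was at 0 in all libraries. The part of muscle content in the SLC25A4 result was not tested.

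Markers of other cell types differed between the groups as well. All 7 macrophage markers had a positive log2 fold change in IR against control, and 6 passed the adjusted threshold. Their sum was 887 and 1324 CPM in IR_Pra, 2516 and 2953 CPM in IR, and 499 and 513 CPM in control. All 6 B cell markers tested had a negative log2 fold change, and 5 passed the adjusted threshold. Their sum was 128 and 331 CPM in IR_Pra, 17.6 and 16.8 CPM in IR, and 412 and 247 CPM in control, lowest in IR as SLC25A27 was. The IR_Pra and control ranges of this sum overlapped, unlike those of SLC25A27. The 7 enteric neuron and glia markers summed to 47.8 and 49.7 CPM in IR_Pra, 141 and 261 CPM in IR, and 35.3 and 46.9 CPM in control, with 2 called higher, so they ran opposite to SLC25A27. All 6 T cell markers had a negative log2 fold change, 4 with an unadjusted edgeR p under 0.05 and 1 past the adjusted threshold. Their sum was also lowest in IR, at 126 and 184 CPM in IR_Pra, 119 and 43.2 CPM in IR, and 233 and 159.7 CPM in control. The enterocyte sum without FABP1 and APOA4, given below, was lowest in IR too. Of 4 adipocyte markers tested, 3 had a positive log2 fold change and 1 passed as higher. Of 3 erythroid and 8 proliferation markers 0 passed the threshold, with 2 and 0 of them under an unadjusted edgeR p of 0.05. LEP of the adipocyte list and SLC4A1 of the erythroid list were at 0 in all libraries. The part of these cell types in the SLC25A27 result was not tested.

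**Figure D2:**
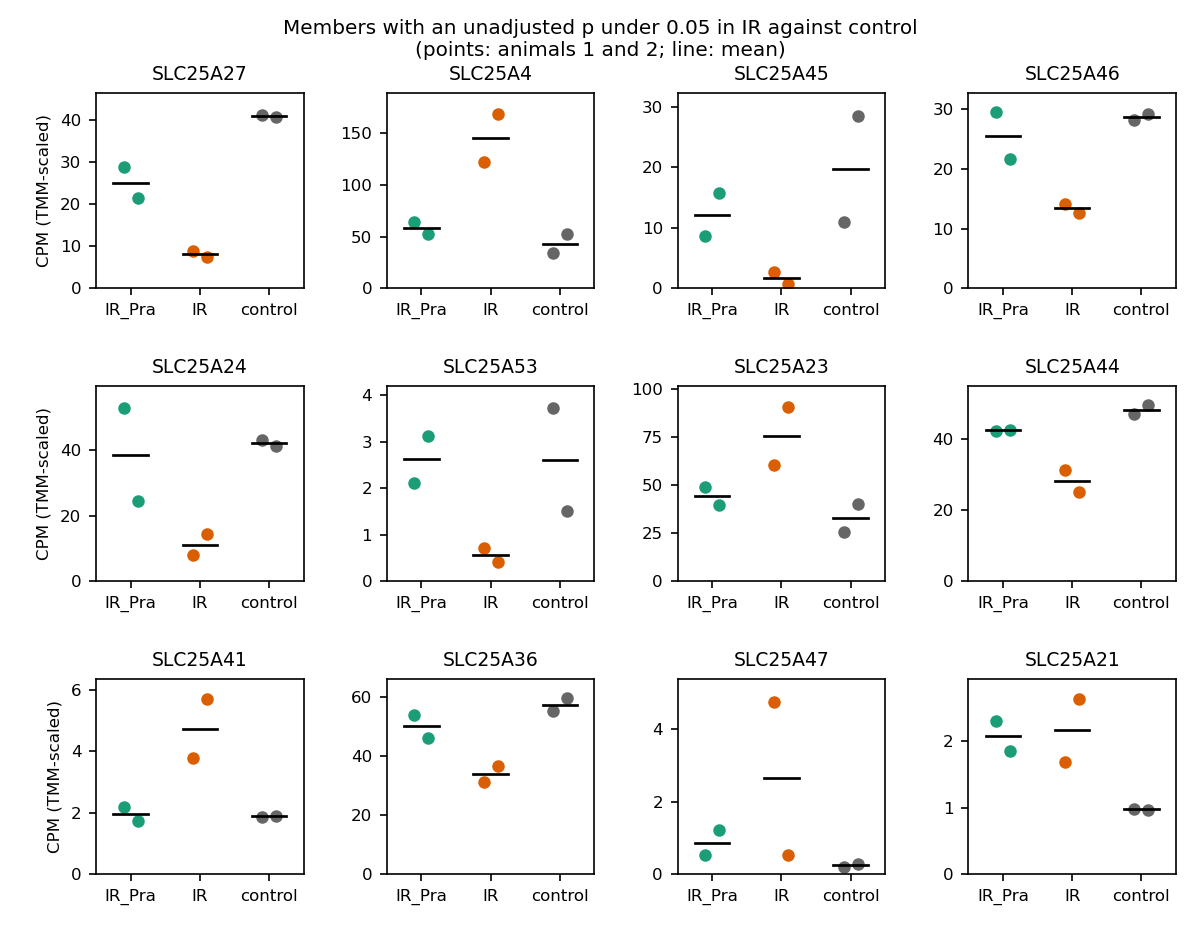
CPM of the 12 members with an unadjusted edgeR p under 0.05 in IR against control, with 1 panel per gene, in order of p. Points are animals 1 and 2 of IR_Pra, IR and control, and the line is their mean. SLC25A27 and SLC25A4, the first 2 panels, passed the adjusted threshold, and SLC25A47 rests on IR 1 at 4.76 CPM.

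The ADP/ATP carriers hand ATP to the cytosol in exchange for ADP, and 3 paralogs were measured. SLC25A5 had 467 and 585 CPM in IR_Pra, 600.0 and 89.7 CPM in IR, and 681 and 586 CPM in control. Its low value was that of IR 2 alone, and the log2 fold change of IR over control was -0.88 ± 0.80 with an edgeR adjusted p of 0.494. SLC25A6 had 1590 and 2084 CPM in IR_Pra, 2399 and 1978 CPM in IR, and 2174 and 2289 CPM in control, with the IR and control ranges overlapping. Of the summed FPKM of the 3 paralogs, SLC25A4 took 2.55% and 1.63% in IR_Pra, 3.31% and 6.44% in IR, and 1% and 1.5% in control, so its share was highest in both IR animals. SLC25A5 took between 20% and 24.4% in 5 libraries and 4.22% in IR 2. The 3 genes are close in sequence, and the sources used here do not say how reads matching more than 1 of them were counted, so their split is uncertain.

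The phosphate carrier SLC25A3 imports the phosphate that the ATP synthase joins to ADP. It had 435 and 447 CPM in IR_Pra, 545 and 316 CPM in IR, and 544 and 540.5 CPM in control. Both IR_Pra animals were below both controls, and the IR animals lay on either side of the IR_Pra animals. No comparison of SLC25A3 passed the threshold.

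The ATP-Mg/phosphate carriers load or unload the matrix adenine nucleotide pool. SLC25A24 and SLC25A23 carry calcium-binding domains and respond to calcium, whereas SLC25A41 is a short form without them. SLC25A24 had 52.9 and 24.4 CPM in IR_Pra, 7.88 and 14.4 CPM in IR, and 43.0 and 41.2 CPM in control. SLC25A23 had 48.8 and 39.9 CPM in IR_Pra, 60.5 and 90.8 CPM in IR, and 25.6 and 40.3 CPM in control. SLC25A41 was much lower, at 2.2 and 1.73 CPM in IR_Pra, 3.77 and 5.68 CPM in IR, and 1.87 and 1.89 CPM in control. Thus SLC25A24 was lower, and SLC25A23 and SLC25A41 higher, in both IR animals than in any control animal. None passed the adjusted threshold: log2 fold changes of IR over control were -1.91 ± 0.47 for SLC25A24, 1.20 ± 0.34 for SLC25A23 and 1.33 ± 0.39 for SLC25A41, with edgeR adjusted p-values of 0.0644, 0.0806 and 0.0903.

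The leading paralog of this subfamily differed between libraries. Of the summed FPKM of SLC25A23, SLC25A24, SLC25A25 and SLC25A41, SLC25A24 took 54.5% and 40.9% in IR_Pra, 16.4% and 18.8% in IR, and 63.0% and 53.0% in control. SLC25A23 took 34.8% and 37.2% in IR_Pra, 65.9% and 65.3% in IR, and 23.3% and 33.7% in control. SLC25A24 led in the 4 IR_Pra and control libraries and SLC25A23 in both IR libraries. By counts rather than FPKM, SLC25A23 also led SLC25A24 in IR_Pra 2, at 50.6% against 31.0%, while the IR libraries gave 76.6% and 75.3% for SLC25A23. SLC25A23 and SLC25A41 are neighbours on chromosome 2, 1.9 kb apart, and whether reads from one were assigned to the other was not tested.

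**Figure D3:**
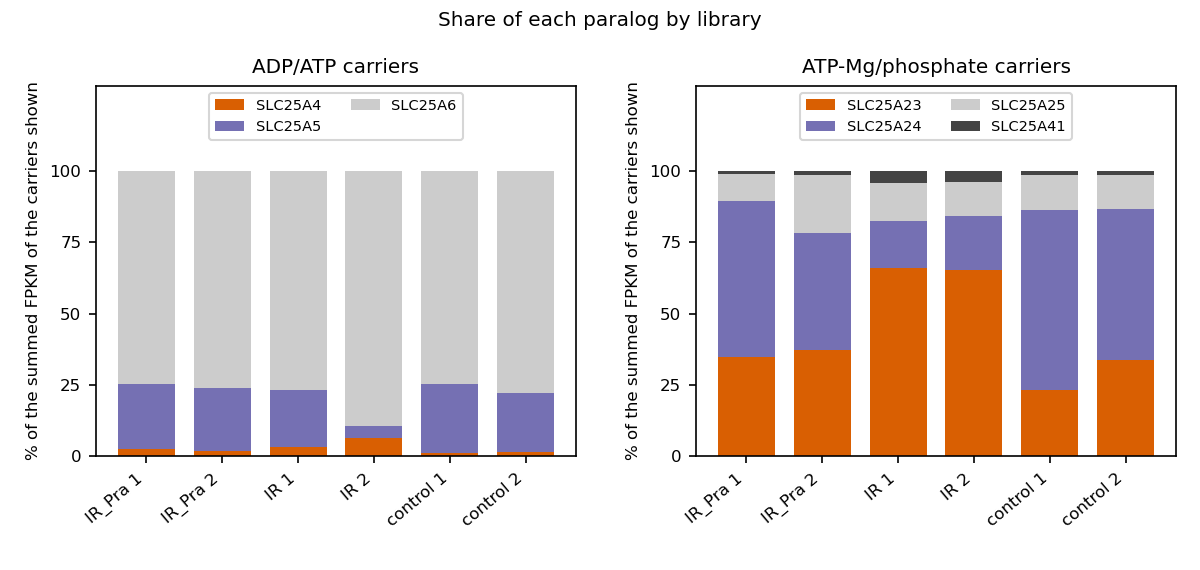
Share (%) of the summed FPKM of the ADP/ATP carriers (left) and of the ATP-Mg/phosphate carriers (right) taken by each paralog, with 1 bar per library. SLC25A5 shrinks to 4.22% in IR 2 alone, while SLC25A23 stands at 65.9% and 65.3% in both IR animals, above every other library.

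The organic acid carriers link the citric acid cycle with the cytosol, and none of the 6 passed the adjusted threshold in IR against control, with 1 (SLC25A21) under an unadjusted p of 0.05. SLC25A1, which exports citrate for fatty acid and sterol synthesis, had 99.1 and 113 CPM in IR_Pra, 275 and 68.4 CPM in IR, and 126 and 134 CPM in control. SLC25A10, which exchanges malate and succinate for phosphate, had 143 and 124 CPM in IR_Pra, 157 and 45 CPM in IR, and 157 and 169.8 CPM in control. In both genes IR 2 was the lowest of the 6 libraries, and for SLC25A1 IR 1 was the highest. SLC25A11, the oxoglutarate/malate carrier of the malate-aspartate shuttle, had 65.9 and 67.6 CPM in IR_Pra, 119 and 70.3 CPM in IR, and 69.7 and 58.7 CPM in control. Its IR values stood above the others, in IR 2 by less than 1 CPM, and the log2 fold change over control was 0.56 ± 0.30 with an edgeR adjusted p of 0.267.

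SLC25A21 and SLC25A35 were the members of this class with the lowest CPM. SLC25A21, the oxodicarboxylate carrier, had 2.30 and 1.86 CPM in IR_Pra, 1.69 and 2.64 CPM in IR, and 0.987 and 0.968 CPM in control. All 4 irradiated animals were above both controls. The log2 fold change was 1.15 ± 0.43 for IR over control and 1.09 ± 0.43 for IR_Pra over control, with edgeR adjusted p-values of 0.144 and 1, and both comparisons share the controls. SLC25A35, an orphan carrier placed in this class by sequence, had 4.73 and 5.7 CPM in IR_Pra, 6.30 and 3.29 CPM in IR, and 3.43 and 2.19 CPM in control. Its IR_Pra values were above the controls, and its IR values overlapped both groups.

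The amino acid carriers supply the urea cycle, the malate-aspartate shuttle and heme synthesis. The median log2 fold change of the class was -0.49 in IR against control, where 5 of 7 members were negative and 0 past the adjusted threshold, 1 of them (SLC25A44) having an unadjusted p under 0.05. SLC25A15, the ornithine carrier that citrulline synthesis needs, had 96.5 and 53.7 CPM in IR_Pra, 55.1 and 11.3 CPM in IR, and 94.7 and 98.7 CPM in control. Both IR animals were below both controls, and IR 1 was level with IR_Pra 2. The log2 fold change of IR over control was -1.54 ± 0.71 with an edgeR adjusted p of 0.208.

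The aspartate/glutamate carriers SLC25A12 and SLC25A13 (citrin) export aspartate to the cytosol for the malate-aspartate shuttle. SLC25A12 had 32.4 and 27.2 CPM in IR_Pra, 21.1 and 32.9 CPM in IR, and 29.4 and 38.5 CPM in control, with all groups overlapping. SLC25A13 had 36.6 and 27.1 CPM in IR_Pra, 28.7 and 13.4 CPM in IR, and 30.2 and 40.3 CPM in control. SLC25A12 took 43.7% of the summed FPKM of the pair in IR 1 and 72.9% in IR 2, against 50.8% to 54.4% in the IR_Pra and control libraries. The IR animals thus lay on either side of the others, with IR 2 further away.

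SLC25A22, a glutamate carrier, had 81.3 and 93.2 CPM in IR_Pra, 248 and 52.7 CPM in IR, and 147 and 107 CPM in control. The IR animals bracketed all others. SLC25A38, which brings glycine into mitochondria for heme synthesis, had 43.3 and 58.7 CPM in IR_Pra, 50.4 and 30.5 CPM in IR, and 51.2 and 62.1 CPM in control. SLC25A44, a carrier of branched-chain amino acids, had 42.3 and 42.6 CPM in IR_Pra, 31.2 and 25.2 CPM in IR, and 46.9 and 49.6 CPM in control. SLC25A44 separated all 3 groups in that order of levels, with IR lowest, and its log2 fold change of IR over control was -0.78 ± 0.22 with an edgeR adjusted p of 0.0847. It was named for its unadjusted p after the values were seen, as were SLC25A36 and SLC25A46 below.

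The 5 iron, carnitine and glutathione carriers gave 0 calls and 0 unadjusted p-values under 0.05 in IR against control. The mitoferrins SLC25A37 and SLC25A28 import iron for heme and iron-sulfur clusters. SLC25A37 had 46.1 and 47.2 CPM in IR_Pra, 59.1 and 26.2 CPM in IR, and 60.0 and 59.7 CPM in control. SLC25A28 had 24.4 and 36 CPM in IR_Pra, 57.3 and 41.6 CPM in IR, and 39.6 and 39.4 CPM in control. SLC25A28 took 59.7% and 68.2% of their summed FPKM in IR_Pra, 73.1% and 81.7% in IR, and 64.8% and 64.8% in control, so both IR animals had its highest shares.

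SLC25A20 exchanges acylcarnitines for carnitine and so admits long-chain fatty acids to oxidation. It had 34.8 and 36.7 CPM in IR_Pra, 60.3 and 28.8 CPM in IR, and 20.3 and 52.1 CPM in control, and the 2 controls differed more than the IR_Pra animals did. SLC25A39, a glutathione carrier, had 121 and 123 CPM in IR_Pra, 366 and 100 CPM in IR, and 132 and 130.3 CPM in control. IR 1 stood far above and IR 2 below the other 4 libraries, which lay between 121 and 132 CPM. Its paralog SLC25A40 took between 0.863% (IR 1) and 5.44% (IR 2) of the summed FPKM of the pair.

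The 9 cofactor and nucleotide carriers also gave 0 calls, with 1 unadjusted p under 0.05 (SLC25A36) in IR against control. SLC25A26, the carrier of S-adenosylmethionine, had 7.03 and 7.13 CPM in IR_Pra, 9.79 and 5.85 CPM in IR, and 8.60 and 11 CPM in control, with IR overlapping both groups. SLC25A36, a pyrimidine nucleotide carrier, had 53.9 and 46.1 CPM in IR_Pra, 31.3 and 36.6 CPM in IR, and 55.0 and 59.7 CPM in control. The IR animals were lowest, with a log2 fold change over control of -0.76 ± 0.22 and an edgeR adjusted p of 0.0902. The second pyrimidine nucleotide carrier, SLC25A33, took 17.8% and 25.3% of the pair's summed FPKM in IR_Pra, 39.3% and 38.4% in IR, and 20% and 16.4% in control, so its share was highest in both IR animals. SLC25A16, SLC25A17, SLC25A32, SLC25A42 and SLC25A51 had log2 fold changes of IR over control between -0.81 and 0.08.

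The orphan and outer membrane members, for most of which the solute long remained unknown, held the highest and the lowest fold change of the family. The median log2 fold change of IR over control was -0.89, with 5 of 6 negative. SLC25A45 had 8.61 and 15.7 CPM in IR_Pra, 2.77 and 0.753 CPM in IR, and 11 and 28.5 CPM in control. SLC25A53 had 2.12 and 3.13 CPM in IR_Pra, 0.706 and 0.423 CPM in IR, and 3.72 and 1.51 CPM in control. Both were lower in each IR animal than in any other animal, with control animals that differed more than 2-fold. Their log2 fold changes of IR over control were -3.50 ± 0.80 and -2.22 ± 0.62, with edgeR adjusted p-values of 0.0587 and 0.0793.

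SLC25A46 lies in the outer membrane, where it takes part in mitochondrial fission and cristae upkeep. It had 29.4 and 21.6 CPM in IR_Pra, 14.1 and 12.6 CPM in IR, and 28.1 and 29.2 CPM in control, with IR below the others. The log2 fold change of IR over control was -1.10 ± 0.26 and the edgeR adjusted p was 0.0596. SLC25A47, known from liver, had 0.521 and 1.22 CPM in IR_Pra, 4.76 and 0.541 CPM in IR, and 0.208 and 0.286 CPM in control. Its high mean in IR was that of IR 1, and the edgeR adjusted p was 0.114. SLC25A48, at 0.174 and 0.506 CPM in IR_Pra, 0.111 and 0.132 CPM in IR, and 0.121 and 0.270 CPM in control, rests on few reads.

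**Figure D4:**
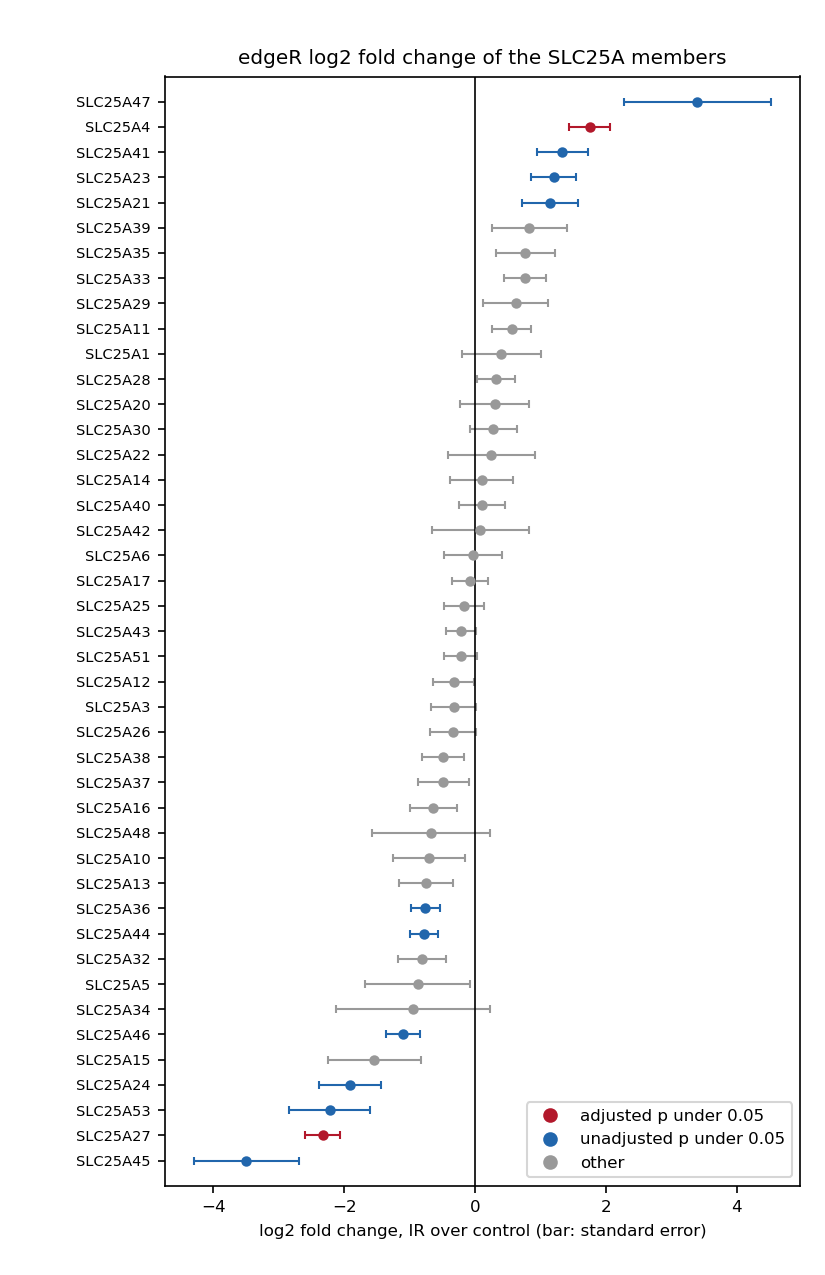
Log2 fold change of IR over control from edgeR for 43 members, ordered by size, with bars of 1 standard error. Red marks an adjusted p under 0.05 (SLC25A4 at 1.75 and SLC25A27 at -2.33), blue an unadjusted p under 0.05, and grey the rest. The bars are wide for SLC25A47, SLC25A34 and SLC25A45.

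The IR animals differed from each other more than the animals of the other groups did. A difference of more than 2-fold between the 2 animals of a group, taken on CPM + 0.5, was found for 1 of 44 members in IR_Pra (2.27%, against 5.15% of all genes), for 13 in IR (29.5%, against 23.9%) and for 5 in control (11.4%, against 5.52%). All 13 in IR were higher in IR 1, whereas among all genes differing more than 2-fold 47.2% were higher in IR 1. SLC25A34, an orphan singled out for this after its values were seen, had 105 and 85.2 CPM in IR_Pra, 110.2 and 4.33 CPM in IR, and 97.8 and 124 CPM in control. IR 1 lay among the other libraries, and IR 2 lay 25.4-fold below IR 1. The fold of IR 1 over IR 2 was 8.78 for SLC25A47, 6.69 for SLC25A5, 4.85 for SLC25A15, 4.71 for SLC25A22 and 4.02 for SLC25A1.

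Epithelial markers separated the IR animals in the same direction, except the enterocyte marker LCT, at 0.520 CPM in IR 1 and 1.11 CPM in IR 2. The 9 enterocyte markers tested summed to 16243 and 14858 CPM in IR_Pra, 28891 and 581 CPM in IR, and 22955 and 24153 CPM in control. FABP1 and APOA4, a fatty acid binding protein and an apolipoprotein, made up most of the sum in IR 1, at 12260 and 8929 CPM. Without these 2, left out after their values were seen, the sums were 15258 and 14044 CPM in IR_Pra, 7703 and 459 CPM in IR, and 22691 and 23845 CPM in control. CPM of 6 of the 9 markers was lower in both IR animals than in either control animal, none of them past the adjusted threshold. The median log2 ratio of the 9 to the control mean was -1.24 in IR 1 and -4.06 in IR 2. The 8 general epithelial markers summed to 7162 and 5860 CPM in IR_Pra, 5949 and 1443 CPM in IR, and 5639 and 6854 CPM in control. IR 2 was thus the lowest library on both lists, and no marker of either list was at 0 in all libraries. The part of epithelial content in the members' values was not tested. In IR 1, fold changes also went with transcript length: the median log2 ratio to the control mean was 0.52 in the shortest 10% of genes and -0.60 in the longest 10%, against 0.02 and -0.14 in IR 2.

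**Figure D5:**
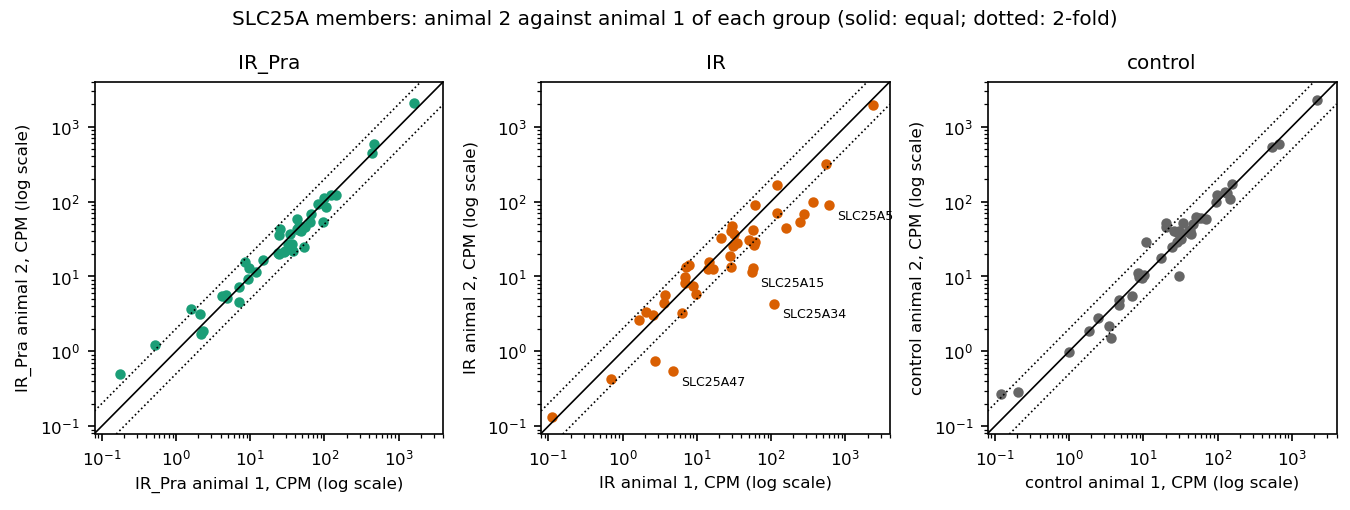
CPM of each member in animal 2 against animal 1 of the same group, on log axes, for IR_Pra, IR and control. The solid line marks equal values and the dotted lines a 2-fold difference in CPM, without the added 0.5, so more of the lowest members cross them. In IR, 13 of 44 members fall below the lower dotted line, with SLC25A34, SLC25A5, SLC25A15 and SLC25A47 named.

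Calls depended on which library was left out. Without IR 1, edgeR called 3 members (6.82%) higher and 13 (29.5%) lower in IR against control, 16 in all, beside 15.1% and 13.1% of all 18896 genes tested in that fit. Without IR 2 it called 5 (11.4%) higher and 3 (6.82%) lower, 8 in all, beside 8.59% and 8.93% of all 18746 genes. Leaving out any control or IR_Pra library left no gene called, in the family or outside it. DESeq2 on all 6 libraries called 11 members, those with an unadjusted edgeR p under 0.05 except SLC25A21, and it called 22.7% of all genes. SLC25A45, SLC25A23, SLC25A41, SLC25A46 and SLC25A44 passed without IR 1, at edgeR adjusted p-values of 0.0173, 0.0235, 0.0275, 0.0308 and 0.0235. SLC25A24, SLC25A47 and SLC25A36 passed without IR 2, at edgeR adjusted p-values of 0.0361, 0.0206 and 0.0475. SLC25A27 and SLC25A4 passed in both of these fits, in which the lone IR animal adds no spread of its own.

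The next comparison asked how pravastatin changed irradiated tissue. In IR_Pra against IR, no member passed the adjusted threshold, and over all genes 0.00550% passed as higher and 0% as lower. An unadjusted edgeR p under 0.05 was found for 7 members (15.9%) higher and 2 (4.55%) lower in IR_Pra, against 11.7% and 12.8% of all genes. The groups did not overlap for 12 members (27.3%) higher and 8 (18.2%) lower in IR_Pra, against 27.3% and 26.6% of all genes. The median log2 fold change was 0.10 over members and -0.02 over all genes, and it became 0.42 without IR 1 and -0.20 without IR 2. DESeq2 called 7 members, the 9 with an unadjusted edgeR p under 0.05 except SLC25A44 and SLC25A36, and 16.5% of the genes to which it gave an adjusted p.

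The 7 higher members were SLC25A27, SLC25A24, SLC25A46, SLC25A53, SLC25A45, SLC25A44 and SLC25A36, and the 2 lower ones were SLC25A4 and SLC25A41. Their CPM values are given above. Log2 fold changes of IR_Pra over IR were 1.79 ± 0.47 for SLC25A24, 0.93 ± 0.26 for SLC25A46, 2.23 ± 0.62 for SLC25A53, 2.79 ± 0.78 for SLC25A45 and -1.27 ± 0.39 for SLC25A41. The edgeR adjusted p-values of these 5 were 0.106, 0.111, 0.112, 0.114 and 0.131. Both comparisons use the same IR libraries, so a member low in IR gives a negative value in one and a positive value in the other. Without IR 1, edgeR called 8 members (18.2%) higher and 2 (4.55%) lower in IR_Pra against IR, 10 in all, beside 9.88% and 9.85% of all genes. Without IR 2 it called 2 (4.55%) higher and 4 (9.09%) lower, 6 in all, beside 6.58% and 5.78%. SLC25A27 was called in both, though the lone IR animal adds no spread of its own to these fits.

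In IR_Pra against control, edgeR called no member and 0% of all genes. By unadjusted p under 0.05, SLC25A21 was higher and SLC25A27 lower, 2 of 44 members (4.55%), against 3.42% of all genes. CPM did not overlap for 5 members (11.4%) higher and 15 (34.1%) lower in IR_Pra, against 20.8% and 20% of all genes. Both directions together made 45.5% of members and 40.8% of all genes. The abundant SLC25A3, SLC25A5, SLC25A6, SLC25A10 and SLC25A1 were among the 15, with log2 fold changes between -0.30 and -0.27. DESeq2 and every other fit also called 0 members here.

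Enzymes and channels that work with these carriers were counted from 12 lists with 102 genes tested. In IR against control 1 rose and 3 fell by edgeR's adjusted p, where 3.39% of all genes rose and 2.68% fell. By unadjusted p 8 were higher and 16 lower, where 16.4% and 13.8% of all genes were. The share of lower partner genes was thus near that of all genes. The median log2 fold change was -0.15, against 0.03 over all genes. In IR_Pra against IR 0 were called, with 14 higher and 6 lower by unadjusted p, where 11.7% and 12.8% of all genes were. In IR_Pra against control 0 were called, with 1 higher and 0 lower by unadjusted p, where 3.42% of all genes passed in either direction.

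Among 11 enzymes of ornithine, citrulline and glutamate metabolism, PYCR1 rose. PYCR1, which makes proline in mitochondria, had 24.1 and 20.9 CPM in IR_Pra, 52.7 and 63.7 CPM in IR, and 15.0 and 10 CPM in control. The IR_Pra animals lay between those of IR and control. Its log2 fold change of IR over control was 2.22 ± 0.29 with an edgeR adjusted p of 0.0370. CPS1 and OTC, which make citrulline from the ornithine that SLC25A15 imports, had log2 fold changes of -1.91 ± 0.46 and -1.75 ± 0.53 in the same comparison, with edgeR adjusted p-values of 0.0634 and 0.0948.

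Of 9 genes of mitochondrial iron, heme and iron-sulfur handling, ABCB10, an inner membrane transporter needed for heme synthesis, fell. It had 31.9 and 40.9 CPM in IR_Pra, 15.7 and 15.3 CPM in IR, and 52.5 and 53.8 CPM in control, with no overlap between groups. The log2 fold change of IR over control was -1.78 ± 0.23 and the edgeR adjusted p was 0.0370. The first enzyme of heme synthesis, ALAS1, and the last, FECH, had log2 fold changes of 0.42 ± 0.23 and -0.02 ± 0.27.

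The 13 protein genes of the mitochondrial genome all had a negative log2 fold change in IR against control, with a median of -1.51. Only ND4L, a subunit of complex I, passed the threshold, at -2.85 ± 0.32 with an edgeR adjusted p of 0.0359. ND4L overlaps its neighbour ND4, and the sources used here do not say how reads over both were counted. The 13 genes summed to 49781 and 56577 CPM in IR_Pra, 45103 and 14453 CPM in IR, and 83689 and 57859 CPM in control, with IR 2 lowest. All 13 also had a negative log2 fold change in IR_Pra against control, with a median of -0.53. In IR against control, 5 of the 13 were lower by unadjusted edgeR p under 0.05, against 13.8% of all genes. CPM of 8 was lower in both IR animals than in either control animal, against 30.0% of all genes. No gene was called among 8 ATP synthase and porin genes, 13 of the citric acid cycle, 10 of pyruvate entry and citrate use, 6 of the NADH shuttles, 8 of the carnitine shuttle and fatty acid oxidation, 7 of mitochondrial folate and glycine use, 7 glutathione enzymes or 7 regulators of mitochondrial biogenesis. By unadjusted edgeR p under 0.05, these lists held 0, 0, 1, 1, 0, 3, 4 and 2 genes. The 4 tested relatives outside the symbol prefix, among the uncoupling proteins and MTCH1 and MTCH2, showed 0 calls and a median log2 fold change of -0.43, with 0 under an unadjusted p of 0.05.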

How the data were processed

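The deposited table gives a read count and an FPKM value per gene and library, per the file headers. According to the submitters' processing notes, the authors used bcl2fastq 2.20.0, Trimmomatic, HISAT2 2.1.0 and StringTie 2.1.3b, with the builds Sscrofa11.1 and GRCh38 named. The role of the second build, the strandedness and how whole-number counts were made are not given in the sources used here. Per the labels, RNA was extracted with Trizol and each library is 1 animal. The 24 rows without a gene name held 0.00906% to 0.0385% of a library's counts and were left out. Coordinates come from the RefSeq table of Sscrofa11.1, which gives no chromosome for SLC25A6.

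Counts were tested in R 4.3.3 with edgeR 4.0.16: filterByExpr by group, TMM factors, and 1 quasi-likelihood fit of all 6 libraries in which each group had its own term, leaving 3 residual degrees of freedom. The common biological coefficient of variation was 0.431. P-values were two-sided and adjusted by Benjamini-Hochberg over 18197 genes within each of 3 comparisons, with a threshold of 0.05. Standard errors come from the F statistic. CPM was used between groups and deposited FPKM between genes. Alternatives used DESeq2 1.42.0, limma 3.58.1 on log2(FPKM + 1) and log2(FPKM + 0.1), other scalings and filters, a robust fit, a replicate block, the 4 libraries of a comparison alone and leaving out each library. The edgeR fit was also run on simulated data with less spread between animals than measured here, which does not show its error rate in these data.

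Members, the 23 gene lists (11 of markers, 12 of partner genes) and the rule for named genes were chosen with earlier results of these data known. Values in every library were given for members past the threshold, the 5 highest and 5 lowest fold changes of each comparison and 17 set members; 1 of these and 2 listed genes are not reported here. SLC25A29, SLC25A33, SLC25A34, SLC25A36, SLC25A40, SLC25A43, SLC25A44 and SLC25A46 were added after their values were seen. The listed genes ALPI, CR2 and HBA1 had no row matched by name and were not analysed here. P-values weigh a group difference against the spread between animals, pooled over the 3 groups of 2 animals. The 44 related genes are not independent replicates.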

Additional observations from a re-analysis of the deposited data

How the results depend on the processing

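The count of 2 members called in IR against control became 11 with DESeq2 and 1 with library size alone as the scaling. It was 1 with limma trend on log2(FPKM + 1) and 1 on log2(FPKM + 0.1). With the 4 libraries compared alone it was 0 (10 members under an unadjusted p of 0.05, 43 tested), and 0 of all genes were called there. It was 1 with the trend on transcript length taken out, an alternative chosen after seeing the data, as was the legacy edgeR fit. Leaving out 1 library gave between 0 and 16 called members. In IR_Pra against IR the count of 0 became 7 with DESeq2 and lay between 0 and 10 with 1 library left out. In IR_Pra against control it was 0 in every fit. The lone library left in a group was assumed to vary like the other groups. The causes were not tested. With the replicate number as a block, 0 members and 0 of all genes were called in IR against control, where all 6 libraries without it gave 1103 genes; the edgeR adjusted p was 0.0777 for SLC25A27 and 0.0833 for SLC25A4. For SLC25A4, limma on log2(FPKM + 1) and log2(FPKM + 0.1) gave adjusted p-values of 0.0651 and 0.0586, and edgeR on the 4 libraries alone gave 0.103, against 0.0995 for SLC25A27. Deviations of same-numbered animals correlated at 0.08, -0.09 and -0.11 across genes in the 3 comparisons, and the animals share only a number. DESeq2 called 4131 genes and library size alone 475 in IR against control. Library size alone also moved the median of all genes in IR_Pra against IR to 0.14, with the members' median at 0.25. The 23 fold changes refitted were those with an unadjusted p under 0.05 in the main fit, and 2 of them were calls. Over 407 refits 361 stayed on their side of the threshold, mostly uncalled values that stayed uncalled. Another 16 lost a call, 6 for SLC25A27 and 10 for SLC25A4, 30 gained one and 0 reversed. The refits share libraries with the fit that picked the 23, so 0 reversals cannot be read as support. With 2 animals a group, a member such as SLC25A45 or SLC25A47 whose animals differ several-fold cannot be separated from the spread, and members near 1 CPM rest on few reads.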

Other observations

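A further row without an SLC25A symbol, LOC100523054, is annotated as mitochondrial ornithine transporter 2, a paralog of SLC25A15. It held 10 and 35 reads in the IR_Pra libraries, 30 and 23 reads in the IR libraries and 122 and 29 reads in the control libraries, so its highest value was that of control 1 alone. It was not counted among the members. The neighbouring members SLC25A29 and SLC25A47 lie 11.8 kb apart on chromosome 7, and SLC25A43 and SLC25A5 lie 12.5 kb apart on chromosome X. SLC25A29, a carrier of basic amino acids, had 23.8 and 20.5 CPM in IR_Pra, 34.9 and 27.7 CPM in IR, and 30.5 and 10.3 CPM in control, without the high value that SLC25A47 had in IR 1. SLC25A43, an orphan carrier, had 15.0 and 16.5 CPM in IR_Pra, 14.5 and 15.4 CPM in IR, and 17.4 and 17.4 CPM in control, without the low value that SLC25A5 had in IR 2.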
